A study of Mus musculus with 4 samples.

Results

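Interleukins and interleukin receptors were examined in EPH-4 cells, a non-malignant mouse mammary epithelial line, with normal or reduced glucocorticoid receptor (GR). The members were all non-control probes whose gene name in the scanner files begins with Il followed by a digit. The rule found 125 of 41174 probes, which stand for 83 of the 28146 gene names on the array. EV-50 is an EPH-4 clone that carries the empty H1-2 vector, with normal GR, and shGR-19 is an EPH-4 clone that carries a short hairpin RNA vector against GR, labelled as depleted. Both clones were grown in serum-free DMEM/F-12 medium with 2 µg/mL puromycin, and neither received a glucocorticoid. Total RNA from each line (300 ng) was labelled with Cy3 and hybridized in duplicate to 1-color Agilent arrays, so there were 2 arrays for each line. Each line is 1 clone, so a difference between the lines cannot be told apart from a difference between clones. No label places the duplicates in separate cultures, and the p-values below therefore measure only the spread between duplicate arrays, which may be technical.

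Interleukins are secreted proteins that carry signals between immune cells and the tissues around them, and epithelial cells both make and receive some of them. Most act through a pair of receptor chains, of which one binds the ligand and the other is shared among several receptors. IL-1 and IL-17 family receptors signal mainly toward NF-kB, whereas receptors of the IL-6, IL-10 and common gamma chain groups signal through Janus kinases and STAT proteins. Soluble receptors, binding proteins and receptor antagonists hold the ligands back. Glucocorticoids acting through GR are known as repressors of many cytokine genes.

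The probes that carried the largest differences are shown first, because probes of the same gene did not give the same difference. Il1rl1 (ST2, the receptor for IL-33, made as a membrane receptor and as a shorter soluble form) has 3 probes on chromosome 1, and Il17rd (also known as Sef) has 3 probes on chromosome 14. For each, 30 of the 60 probe bases are given 5′ to 3′ in lower case, with mm9 coordinates on the plus strand.
Il1rl1 A_52_P19955, chr1:40498342-40499204: cagaagccccaacttgaataagactggata
Il1rl1 A_51_P339793, chr1:40504769-40504828: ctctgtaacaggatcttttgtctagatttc
Il1rl1 A_52_P484194, chr1:40521952-40522011: tgaccttatttgcttaccagttacaggtaa
Il17rd A_52_P12243, chr14:27902088-27902147: gaagttatataggttaaggctggcaaacct
Il17rd A_51_P184447, chr14:27913180-27913239: agaagcagtttatacccttccaacatcccc
Il17rd A_51_P253732, chr14:27920311-27920370: atagcactgtgccatatttttacattggcg
The first Il1rl1 probe spans 863 bases of genome and so crosses an intron, whereas each of the others lies within 60 bases. The scanner files assign A_52_P484194 to another RefSeq transcript of Il1rl1 than the other probes of the gene.

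Of the 125 member probes, 52 were well above background on all 4 arrays and 50 on none. The EV-50 array labelled replicate 1 had the fewest spots well above background, 23290 against 26745 to 27358 on the others. A probe entered the tests when both arrays of either line had it well above background, which left 62 member probes of 47 genes, out of 24436 kept probes on the array. Of these, 9 were not well above background on the EV-50 array labelled replicate 1 only, and entered through shGR-19. They are single probes of Il1f8, Il28b, Il10ra, Il23r, Il31ra, Il2, Il2ra, Il17rd and Il20rb, so their differences rest on low signals. A further 10 genes were well above background on some array but had no kept probe, and 26 genes were not well above background on any array. The dim genes included Il1a and Il1b (the classical IL-1 ligands), Il33, Il6, Il10, both subunits of IL-12 (Il12a and Il12b), Il4, Il5, Il17a and Il17b, and the shared receptor chain Il2rg. All 5 IL-17 receptor genes and 7 of 8 receptor genes of the IL-6 and IL-12 families were kept, against 2 of 6 IL-17 ligand genes and 3 of 7 IL-6 and IL-12 family ligand genes.

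**Figure D1:**
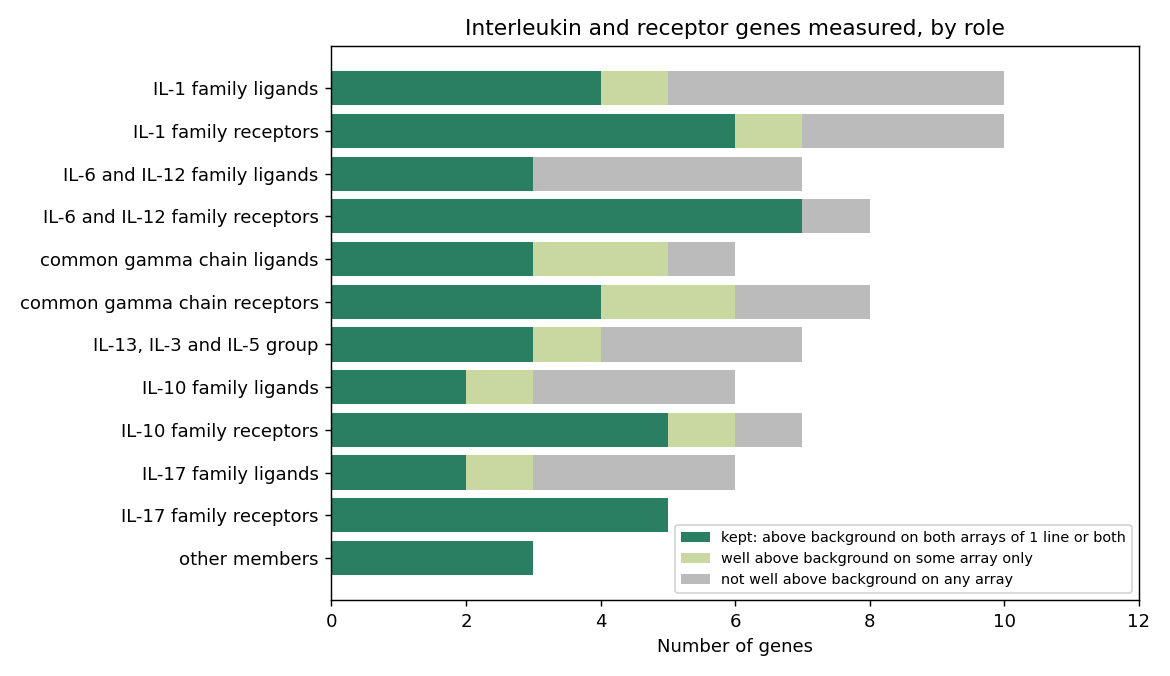
Number of member genes (x axis) in each role group (y axis) that had a probe kept for testing (dark green), a probe above background on some array only (light green) or none (gray). All 5 IL-17 receptor genes were measured, and 5 of 10 IL-1 family ligand genes were on no array above background.

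The labelled cell type was checked against markers. Of 11 epithelial markers 10 had a kept probe, and 1 of them passed in the table (background 5.52% higher, 6.04% lower). It was the basal keratin Krt14, lower in shGR-19 at -1.13 (log2, limma's adjusted p = 0.00332). The immune markers Ptprc (CD45), Emr1, Itgam, Ms4a1, Ncr1 and Cpa3 were not well above background on any array. Of 15 immune markers 7 had a kept probe. Of these, 1 was lower and none higher in the table at an adjusted p below 0.01 (background 5.52% higher, 6.04% lower). Table differences of the 7 ran from -0.81 to 0.44 (log2), with a median of -0.17. Of 7 fibroblast markers 3 had a kept probe, and their values are given beside Il1rl1 below.

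The deposited series holds these arrays in 2 forms, the scanner files and a table of normalized log2 values, and the forms did not differ alike between the lines. Over 12627 brighter probes, the 2 scanner arrays labelled replicate 1 differed between the lines with an SD of 0.0848 (log2), against 0.468 for those labelled replicate 2, 0.546 between the EV-50 duplicates and 0.663 between the shGR-19 duplicates. In the value table the duplicates differed by an SD of 0.101 and 0.0909, and the lines by 0.467 and 0.469. The targeted gene Nr3c1, which encodes GR, had 4 kept probes. In the table they were lower in shGR-19 by 1.41 to 1.94 (log2), all with an adjusted p below 0.01 (0.00215 to 0.00539). On the scanner arrays labelled replicate 2 they differed by -1.95 to -1.47, and on those labelled replicate 1 by -0.35 to -0.20. The replicate 1 scanner arrays thus had the labelled direction for the targeted gene, but a much smaller difference than those labelled replicate 2. Whether those arrays carry the right labels is not settled by these data. The difference within each replicate number of the scanner files is therefore given for each called member gene. All arrays came from 1 slide and 1 scan.

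A probe was called when limma's adjusted p was below 0.01 and the difference exceeded 2-fold. Among the table values, 3 member probes were called higher in shGR-19 and 3 lower, 4.84% of 62 in each direction, against a background of 1.87% higher and 2.39% lower over all kept probes. The probes called higher belonged to Il1rl1 (2 probes) and Il17rd, and those called lower to Il1rn, Il18 and Il20rb. The Il17rd probe was well above background on 1 of the 2 EV-50 arrays and entered through shGR-19. With only probes above background on all 4 arrays, 5 of 52 member probes were called. The share called over the 21172 such probes is not given here, so these 5 have no background beside them. With an adjusted p below 0.01 and no limit on the fold, 4 were higher (6.45%, background 5.52%) and 8 lower (12.9%, background 6.04%). The 12 probes belong to 10 genes. Past 2-fold with no test there were 4 higher (6.45%, background 2.64%) and 5 lower (8.06%, background 3.49%), which adds the other Il20rb probe, Il27ra and, at its measured value, the Il1rl1 probe A_52_P19955, which was not well above background in EV-50 and had no fold of its own (3 higher without it). The median log2 difference of the 62 member probes was -0.06, against 0.01 over all kept probes.

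When any 1 of the 4 table columns was left out, no member probe was called and no probe on the array had an adjusted p below 0.01. The 12 member probes then had adjusted p-values of 0.0297 to 0.0636, and each difference stayed within the same direction. In the scanner files no member probe was called (background 0% in each direction), none had an unadjusted p below 0.05 against 0.855% of all kept probes, and the smallest unadjusted p of a member was 0.0674. On those data 2 member probes exceeded 2-fold upward with no test, of Il1rl1 and Il17rd (3.23%, background 1.04%), and none downward (background 1.16%). Within the arrays labelled replicate 1 no member probe exceeded 2-fold (background 2.46% higher, 1.11% lower), and within those labelled replicate 2, 4 were higher (6.45%, background 2.37%; 3 without A_52_P19955) and 4 lower (6.45%, background 3.16%). An exact permutation test of a single probe, 2 arrays against 2, cannot go below p = 0.333. In the scanner files the lines did not overlap for 9 of the 62 kept member probes, and in the table for 40. The share over all kept probes is not given here, so a lack of overlap at a single gene below is a description only.

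**Figure D2:**
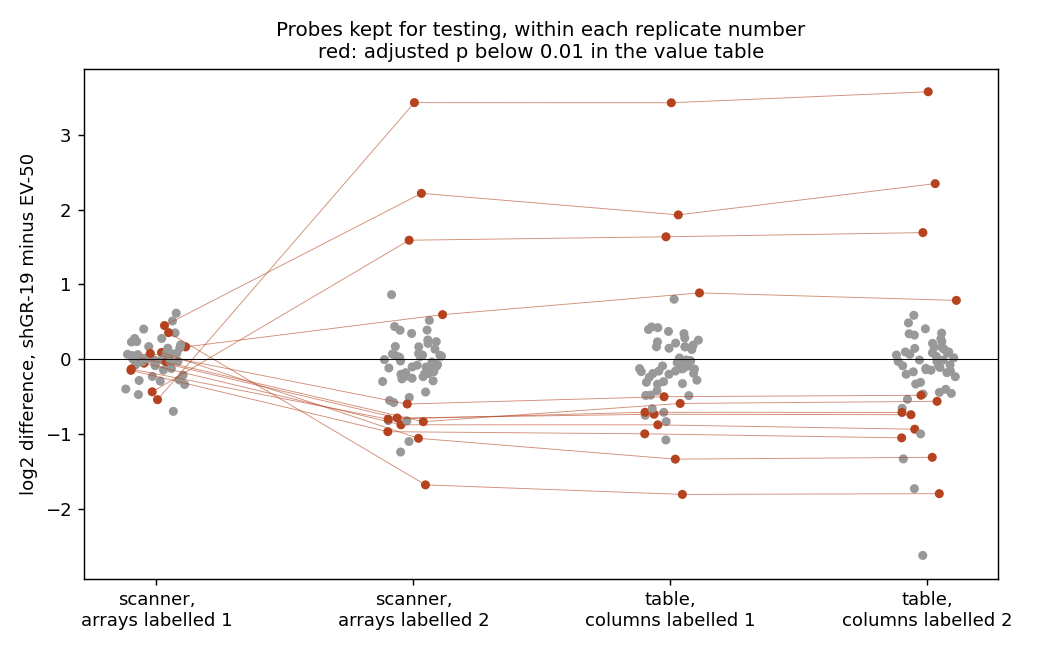
Log2 difference, shGR-19 minus EV-50 (y axis), of the kept member probes within each replicate number of the scanner files and of the value table (x axis); each point is a probe, and red points joined by lines are the 12 probes with an adjusted p below 0.01 in the table. Differences on the scanner arrays labelled 1 lie between -0.70 and 0.61, whereas on those labelled 2 they reach -1.68 and 3.43. A probe of Il1rl1 that was not above background in EV-50 is left out.

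The receptors of the IL-1 family held the largest difference. Il1rl1 rose in shGR-19. At its brightest probe, A_51_P339793, the table values (log2, centered on the probe's median over the 4 columns) were -1.65 and -1.93 in EV-50 and 1.78 and 1.65 in shGR-19. The lines did not overlap. The difference was 3.50 ± 0.12 (log2, SE, n = 2 per line), an 11.3-fold difference, with limma's adjusted p = 0.00279.

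The scaled log2 signals of this probe in the scanner files, as log2 ratios to the array's 75th percentile, were -0.10 and -3.88 in EV-50 and -0.65 and -0.45 in shGR-19. The EV-50 array labelled replicate 2 stood alone as low, and the other 3 arrays lay close together. The difference was therefore 3.43 within replicate 2 and -0.54 within replicate 1, and limma's fit gave 1.44 ± 1.30 (SE, n = 2 per line), which did not pass (unadjusted p = 0.323 in limma).

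The second probe, A_52_P484194, rose less. Its table values were -0.83 and -0.81 in EV-50 and 0.81 and 0.89 in shGR-19. The difference was 1.66 ± 0.055 (log2, SE, n = 2 per line; limma's adjusted p = 0.00257). Scanner signals (scaled log2) of this probe were -1.84 and -2.86 in EV-50 and -2.28 and -1.27 in shGR-19. The lines overlapped, with a difference of -0.44 within replicate 1 and 1.59 within replicate 2. Set against this probe within each table column, A_51_P339793 differed by 1.84 more (log2) between the lines. The third probe was not well above background on either EV-50 array, and the floor of those arrays lies above its shGR-19 mean, so no fold is given.

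Of the 7 fibroblast markers, the 3 with a kept probe were also called higher in shGR-19 in the table (background 1.87% higher). Col1a2 (a collagen chain) differed by 3.27, Pdgfrb by 2.03 and Pdgfra by 1.16 (log2). Pdgfra was well above background on 1 of the 2 EV-50 arrays and entered through shGR-19. The median difference of the 3 on the scanner arrays was 0.20 within replicate 1 and 2.16 within replicate 2. Their list's summed signal was 1.91 and 6.54 times the array's 75th percentile in EV-50 and 1.88 and 49.8 in shGR-19, and Dcn was not well above background on any array. At A_51_P339793 the scaled log2 signals of Il1rl1 on the scanner arrays were -0.10 and -3.88 in EV-50 and -0.65 and -0.45 in shGR-19. The part of fibroblast-like cells in the Il1rl1 difference was not tested. In such bulk RNA, more cells of a type and more RNA per cell cannot be told apart.

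Il1rl1 lies in a cluster of IL-1 family receptor genes on chromosome 1 (mm9, chr1:40168971-40605788, 437 kb between the outermost probes), of which 6 of 11 probes were kept. None of the neighbors had an adjusted p below 0.01 (background 5.52% higher, 6.04% lower). Il1r1, the signaling receptor for IL-1, lies 132.1 kb before the Il1rl1 probe and differed by 0.31 ± 0.055 (log2, SE; adjusted p = 0.0263). The IL-18 receptor chains on the other side, Il18r1 and Il18rap, had differences of -0.16 and -0.22 (log2). Il1r2, a decoy receptor for IL-1, and Il1rl2, the IL-36 receptor, had no kept probe.

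**Figure D3:**
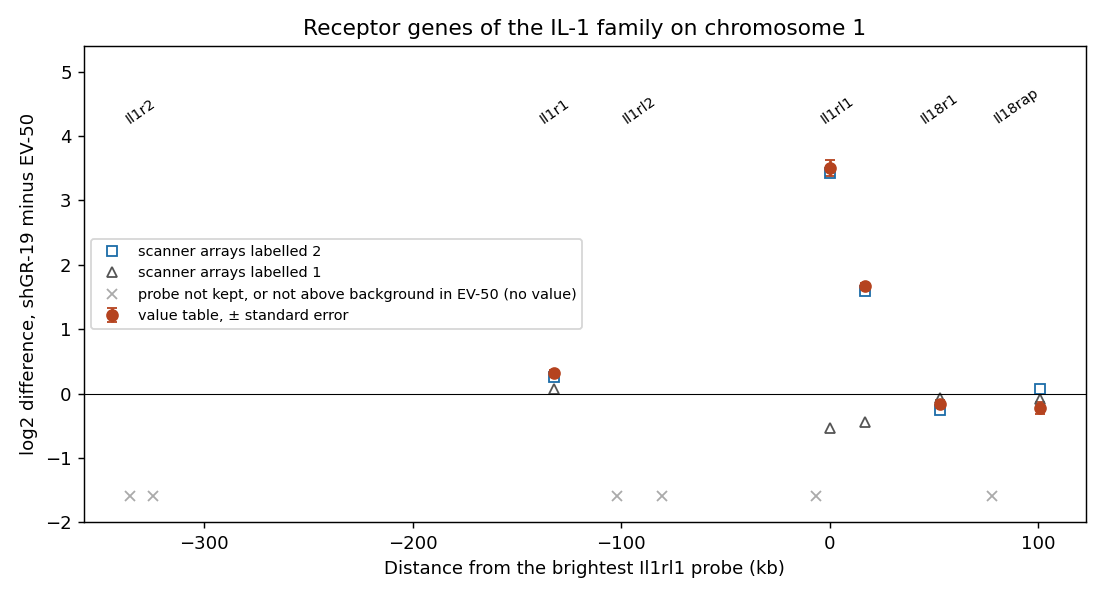
Log2 difference, shGR-19 minus EV-50 (y axis), of IL-1 family receptor probes against their distance in kb from the brightest Il1rl1 probe (x axis); red points are table differences with their standard error, blue squares the scanner arrays labelled 2, gray triangles those labelled 1, and crosses probes with no value. Both measured Il1rl1 probes lie above 1.5 in the table and below 0 on the arrays labelled 1, and the neighbors lie between -0.22 and 0.31 in the table.

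Il1rap, the accessory chain shared by the receptors for IL-1, IL-33 and IL-36, differed by -0.31 at its brighter probe (log2; adjusted p = 0.0189) and by -0.82 ± 0.39 at the other (log2, SE; adjusted p = 0.187). Il18bp, a secreted protein that binds IL-18, gave -0.65 and -0.71 (log2; adjusted p = 0.0317 and 0.0226).

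Of the IL-1 family ligands 4 of 10 were kept, 3 fell in shGR-19 and none rose (background 5.52% higher, 6.04% lower). Il1rn, the IL-1 receptor antagonist, fell most. Its table values were 0.71 and 0.63 in EV-50 and -0.63 and -0.68 in shGR-19. The difference was -1.33 ± 0.056 (log2, SE, n = 2 per line; limma's adjusted p = 0.00331).

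On the scanner arrays Il1rn had scaled log2 signals of -2.13 and -3.26 in EV-50 and -2.05 and -4.32 in shGR-19. The arrays labelled replicate 1 of both lines were the higher ones, so the lines overlapped. The difference was 0.09 within replicate 1 and -1.06 within replicate 2.

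Il18, an IL-1 family cytokine that epithelia store as an inactive precursor, fell 2.04-fold in the table. It was printed as 10 spots on each array, which were averaged. Its table values were 0.50 and 0.50 in EV-50 and -0.50 and -0.56 in shGR-19, a difference of -1.03 ± 0.050 (log2, SE, n = 2 per line; limma's adjusted p = 0.00370). Its scanner signals (scaled log2) were -2.58 and -1.66 in EV-50 and -2.73 and -2.63 in shGR-19. The EV-50 array labelled replicate 2 was the highest, and both EV-50 arrays lay above both shGR-19 arrays. The differences within replicates 1 and 2 were -0.15 and -0.97.

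Il1f5, the IL-36 receptor antagonist, fell by less than 2-fold. The table values were 0.42 and 0.32 in EV-50 and -0.32 and -0.43 in shGR-19 (difference -0.74 ± 0.072, log2, SE, n = 2 per line; limma's adjusted p = 0.00892). Scanner signals (scaled log2) were -3.88 and -3.59 in EV-50 and -3.86 and -4.38 in shGR-19. The shGR-19 array labelled replicate 2 stood lowest and the other 3 lay together, with differences of 0.02 within replicate 1 and -0.79 within replicate 2. Il1f8, an IL-36 agonist, gave -0.45 ± 0.24 (log2, SE; adjusted p = 0.239).

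IL-18 is cut to its active form by caspase-1 and leaves the cell through pores of gasdermin D. Of 25 genes of IL-1 and IL-18 processing and signaling, 23 were kept, 4 were lower and none higher in the table at an adjusted p below 0.01 (background 5.52% higher, 6.04% lower). The 3 that exceeded 2-fold act in processing and release: Casp4 (caspase-11) differed by -2.31, Gsdmd (gasdermin D) by -2.11 and Casp1 by -1.10 (log2). The fourth, Myd88, the adaptor of IL-1 family receptors, differed by -0.52. The median over the 23 genes was -0.15 (log2). Within the scanner arrays labelled replicate 2, Casp4 differed by -2.35 and Gsdmd by -2.23, and within those labelled replicate 1 by -0.0025 and -0.016.

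**Figure D4:**
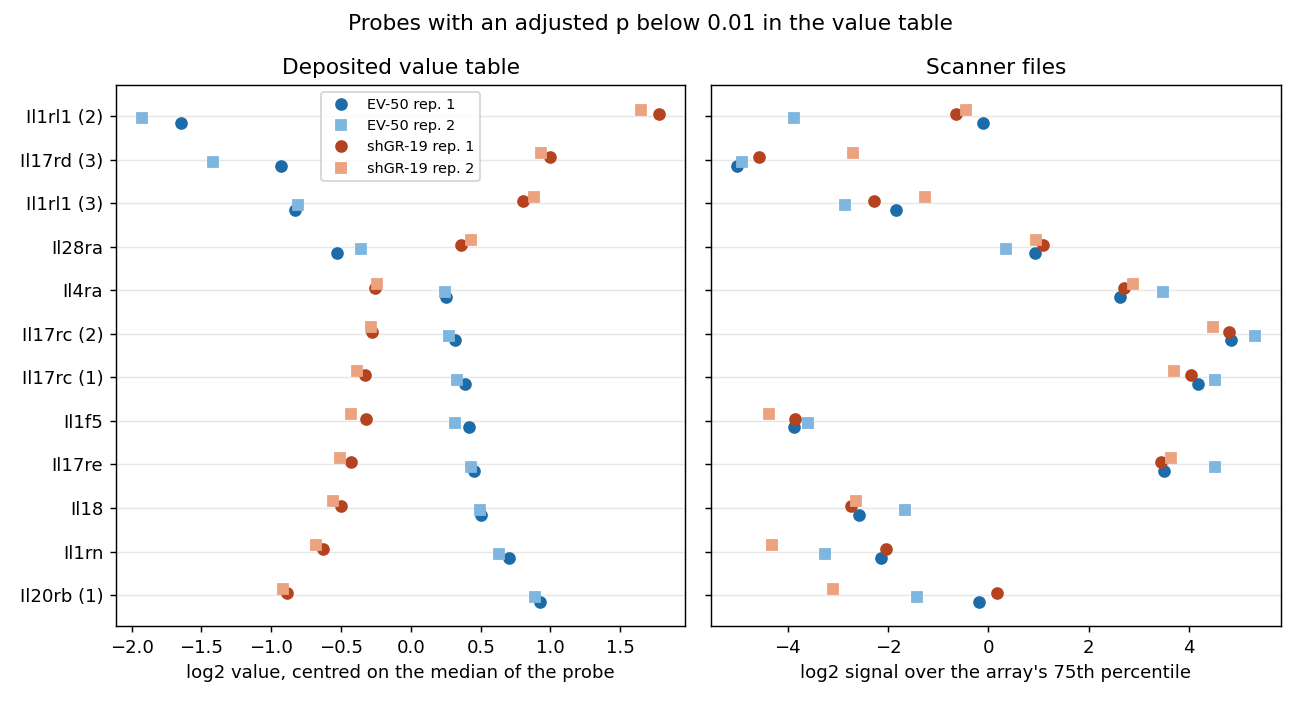
Values of the 12 member probes with an adjusted p below 0.01 in the value table (y axis), in the table (left, log2 value centered on the median of the probe) and in the scanner files (right, log2 signal over the array's 75th percentile); each point is an array, blue for EV-50 and red for shGR-19, circles for replicate 1 and squares for replicate 2, and numbers after a gene name tell its probes apart. The 12 probes were chosen by their table values, so the lack of overlap between the lines there is no separate result. In the table the lines do not overlap for 40 of the 62 kept member probes. In the scanner files the circles of the lines lie closer together than the squares for all 12. Levels of different probes are not comparable.

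Of the IL-10 family receptors 5 of 7 were kept, 1 fell and 1 rose (background 5.52% higher, 6.04% lower). Il20rb, the chain that the receptors for IL-19, IL-20 and IL-24 share, fell 3.50-fold in the table. The table values were 0.92 and 0.89 in EV-50 and -0.89 and -0.91 in shGR-19. The difference was -1.81 ± 0.048 (log2, SE, n = 2 per line; limma's adjusted p = 0.00222).

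On the scanner arrays Il20rb had scaled log2 signals of -0.19 and -1.42 in EV-50 and 0.17 and -3.10 in shGR-19. The shGR-19 array labelled replicate 1 was the highest of the 4 and that labelled replicate 2 the lowest. The difference was 0.35 within replicate 1 and -1.68 within replicate 2. The other Il20rb probe gave a table difference of -1.04 ± 0.38 (log2, SE; adjusted p = 0.116).

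Il28ra (current symbol Ifnlr1), the ligand-binding chain of the lambda interferon receptor, rose. The table values were -0.53 and -0.36 in EV-50 and 0.36 and 0.43 in shGR-19 (difference 0.84 ± 0.083, log2, SE, n = 2 per line; limma's adjusted p = 0.00922). In the scanner files its scaled log2 signals were 0.92 and 0.35 in EV-50 and 1.09 and 0.94 in shGR-19. Both shGR-19 arrays lay above both EV-50 arrays, by 0.16 within replicate 1 and 0.59 within replicate 2.

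Il10rb, the partner chain of Il28ra and of the IL-10 and IL-22 receptors, gave 0.03 ± 0.049 (log2, SE; adjusted p = 0.723). Il22ra1, which pairs with Il20rb or Il10rb, gave -0.04 and Il10ra 0.08 (log2). Il20ra, the other partner of Il20rb, was not well above background on any array. Il24, a ligand of the Il20rb receptors and 1 of the 2 kept IL-10 family ligands, gave 0.21 and 0.20 (log2; adjusted p = 0.0724 and 0.0599 at its probes). Il28b, the other kept ligand, encodes a lambda interferon and gave 0.0083.

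All 5 IL-17 receptors were kept. Il17re and Il17rc, which each pair with Il17ra to receive IL-17C and IL-17A or IL-17F respectively, fell. Their probes lie 12.9 kb apart on chromosome 6 (mm9). The table values of Il17re were 0.45 and 0.43 in EV-50 and -0.43 and -0.51 in shGR-19, a difference of -0.91 ± 0.055 (log2, SE, n = 2 per line; limma's adjusted p = 0.00469). The scanner arrays gave scaled log2 signals of 3.50 and 4.53 in EV-50 and 3.44 and 3.65 in shGR-19. The EV-50 array labelled replicate 2 stood above the other 3, and the differences within replicates 1 and 2 were -0.06 and -0.88.

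Il17rc was measured by 2 probes, and both fell. At the brighter the table values were 0.32 and 0.28 in EV-50 and -0.28 and -0.29 in shGR-19 (difference -0.58 ± 0.048, log2, SE, n = 2 per line; limma's adjusted p = 0.00711), and the other gave -0.71 ± 0.055 (limma's adjusted p = 0.00640). The scaled log2 signals of the brighter probe on the scanner arrays were 4.84 and 5.31 in EV-50 and 4.80 and 4.47 in shGR-19. Both EV-50 arrays lay above both shGR-19 arrays, by 0.04 within replicate 1 and 0.84 within replicate 2. The shared chain Il17ra gave -0.10 and -0.12 at its probes and Il17rb -0.05 (log2), none with an adjusted p below 0.01.

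The 3 probes of Il17rd, an inhibitor of growth factor signaling that is related to the IL-17 receptors, did not give the same difference. A_51_P253732, which lies the farthest along the plus strand, had table values of -0.93 and -1.42 in EV-50 and 1.00 and 0.93 in shGR-19. The difference was 2.14 ± 0.19 (log2, SE, n = 2 per line; limma's adjusted p = 0.00799). On the scanner arrays its scaled log2 signals were -5.01 and -4.91 in EV-50 and -4.56 and -2.69 in shGR-19. The shGR-19 array labelled replicate 2 stood apart as high and the other 3 lay together, and the probe was not well above background on the EV-50 array labelled replicate 1. The difference was 0.45 within replicate 1 and 2.22 within replicate 2, and the probe was thus measured on 1 of the 2 EV-50 arrays. The brighter probes A_52_P12243 and A_51_P184447 gave -0.13 ± 0.092 and -0.16 ± 0.28 (log2, SE; adjusted p = 0.334 and 0.683).

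Of the IL-17 ligands, Il17d gave 0.39 ± 0.052 (log2, SE; adjusted p = 0.0159) and Il17f 0.02 ± 0.13. Of 14 genes of IL-17 signaling and its epithelial targets, 10 were kept, 4 were lower and 1 higher in the table at an adjusted p below 0.01 (background 5.52% higher, 6.04% lower). The 4 lower genes encode secreted products of epithelia: S100a8, an antimicrobial calcium-binding protein, differed by -3.26, and the chemokines Cxcl5, Ccl20 and Cxcl1 by -2.74, -1.67 and -1.41 (log2). Csf3, the granulocyte growth factor G-CSF, differed by 1.02. Within the scanner arrays labelled replicate 2 these 5 differed by -3.36, -2.82, -1.50, -1.44 and 0.90 in the same order, and on those labelled replicate 1 by -0.10, -0.13, -0.61, 0.016 and 0.05. S100a8 was well above background on 1 of the 2 shGR-19 arrays. S100a9, whose product pairs with that of S100a8, was not well above background on any array. The median over the 10 genes was -0.45 (log2).

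**Figure D5:**
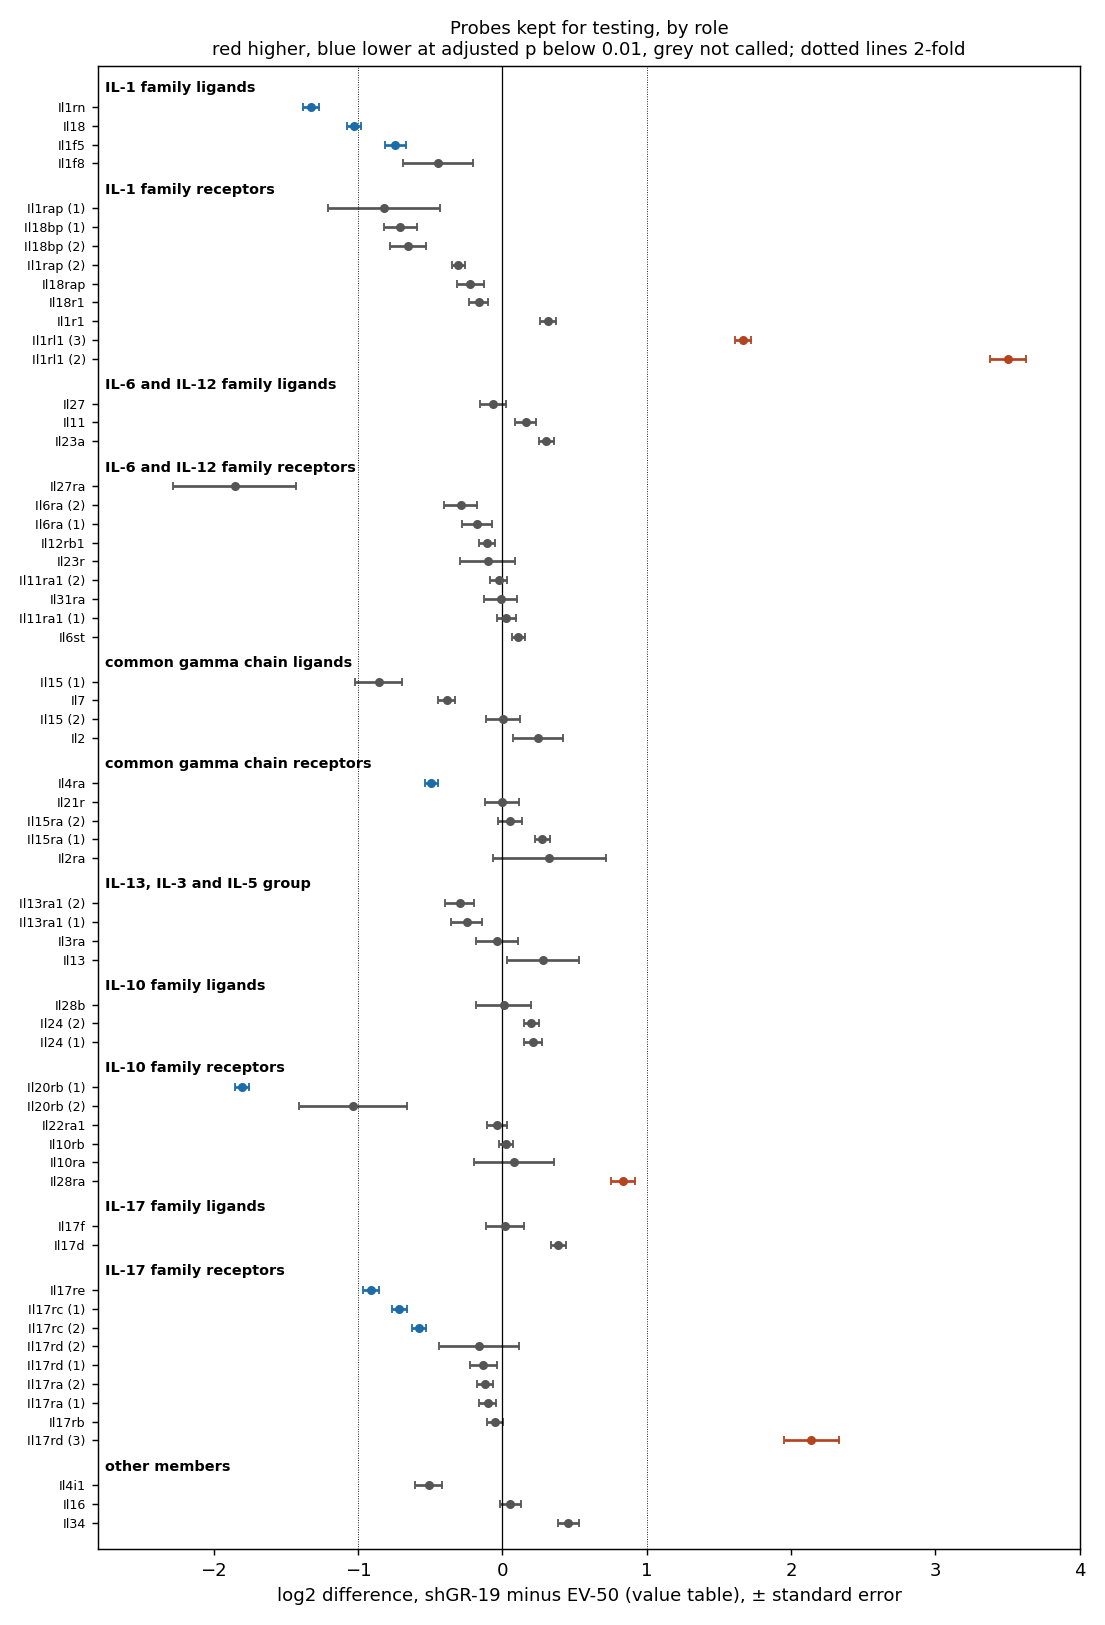
Log2 difference, shGR-19 minus EV-50, in the value table (x axis) with its standard error for the kept member probes (y axis), grouped by role; red probes were higher and blue lower at an adjusted p below 0.01, gray probes did not pass, and numbers after a gene name tell its probes apart. Red appears in the IL-1, IL-10 and IL-17 receptor groups (3.50 for Il1rl1). No probe of the IL-6 and IL-12 family passed (background 5.52% higher, 6.04% lower). A probe of Il1rl1 that was not above background in EV-50 is left out.

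No member of the IL-6 and IL-12 families passed an adjusted p of 0.01 (background 5.52% higher, 6.04% lower). Il6st (gp130), the signal-transducing chain of the IL-6 family, gave 0.11 ± 0.048 (log2, SE; adjusted p = 0.160). Of the chains that pair with it, Il6ra gave -0.18 and -0.29, Il11ra1 -0.03 and 0.03, and Il27ra -1.86 ± 0.43 (log2, SE; adjusted p = 0.0455). Il31ra, a chain of the IL-31 receptor, gave -0.01. Il11ra1 has near-identical copies in the mouse genome, so its signal may not come from 1 gene.

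Il27ra, a receptor chain for IL-27, had the largest difference among the probes that did not pass in the table. The table values were 0.54 and 1.12 in EV-50 and -0.54 and -1.51 in shGR-19. The duplicates were far apart in both lines, though the lines did not overlap. On the scanner arrays its scaled log2 signals were -2.57 and -4.38 in EV-50 and -2.58 and -5.48 in shGR-19, and both arrays labelled replicate 1 lay above both labelled replicate 2.

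Il12rb1, which the IL-12 and IL-23 receptors share, and Il23r, the chain specific to IL-23, gave -0.11 and -0.10 (log2). Among the ligands, Il23a (the subunit specific to IL-23) gave 0.30 ± 0.054 (log2, SE; adjusted p = 0.0263), Il11, a gp130 cytokine, 0.16 and Il27, a subunit of IL-27, -0.06. Of 9 kept genes for other ligands and receptors of the gp130 group, 1 was higher and none lower (background 5.52% higher, 6.04% lower). It was Clcf1, a gp130 cytokine, at 0.67 (log2), with scanner differences of 0.11 within replicate 1 and 0.75 within replicate 2.

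Of 20 genes of Janus kinase and STAT signaling, 19 were kept, and 3 were higher in the table at an adjusted p below 0.01 (background 5.52%). Socs1, an inhibitor of Janus kinases, differed by 1.49, Socs3, a related inhibitor, by 0.71 and the kinase Jak2 by 0.56 (log2). Within the scanner arrays labelled replicate 2 they differed by 1.31, 0.71 and 0.75 in the same order. Within those labelled replicate 1 the differences were 0.10, 0.08 and -0.11. Past 2-fold in the other direction was Stat2, which transmits interferon signals, at -1.04. On the scanner arrays Stat2 differed by -0.08 within replicate 1 and -1.08 within replicate 2. The median over the 19 genes was -0.05.

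Il4ra is the receptor chain that binds IL-4 and also serves IL-13. It was the 1 of 4 kept common gamma chain receptors to pass, and it fell (background 5.52% higher, 6.04% lower). Its table values were 0.25 and 0.24 in EV-50 and -0.26 and -0.24 in shGR-19 (difference -0.49 ± 0.046, log2, SE, n = 2 per line; limma's adjusted p = 0.00837). As scaled log2 signals the scanner arrays gave 2.63 and 3.48 in EV-50 and 2.71 and 2.88 in shGR-19. The EV-50 array labelled replicate 2 stood above the other 3, and the difference was 0.08 within replicate 1 and -0.60 within replicate 2. Its partner for IL-13, Il13ra1, gave -0.25 and -0.30 (log2), and its partner for IL-4, Il2rg, was not well above background on any array.

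Il15, a growth factor for natural killer and memory T cells, gave unlike values at its probes on chromosome 8. A_52_P15461 (mm9, chr8:84858403-84858462) gave -0.86 ± 0.16 (log2, SE; adjusted p = 0.0304), and the brighter A_52_P383066 (mm9, chr8:84867236-84867295) gave 0.0017 ± 0.12. Both lie on the minus strand, and 30 bases of each are given 5′ to 3′ so that the probes can be told apart.
Il15 A_52_P15461: tgcaggttattttacatgagtacagtaaca
Il15 A_52_P383066: gttccgttgcttatctactcagtgagacaa
Il15ra, which presents IL-15, gave 0.05 at its brighter probe and 0.28 (adjusted p = 0.0297) at the other. Il7, a growth factor for lymphocytes, gave -0.39 ± 0.056 (log2, SE; adjusted p = 0.0183). The T cell growth factor Il2, its high-affinity chain Il2ra and the IL-21 receptor Il21r gave 0.25, 0.33 and -0.0030 (log2). The Il2 and Il2ra probes were well above background on 1 of the 2 EV-50 arrays. Il13, a cytokine of allergic responses, gave 0.28 and Il3ra, the chain that binds IL-3, -0.04.

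Of the members outside these families, Il34, a ligand of the macrophage growth factor receptor, gave 0.46 ± 0.071, Il4i1, a secreted amino acid oxidase, -0.51 ± 0.093 and Il16, a CD4 ligand, 0.06 ± 0.073 (log2, SE; adjusted p = 0.0209, 0.0281 and 0.597). Of 6 genes for thymic stromal lymphopoietin, which acts through Il7r, and for the common beta chain group, 4 were kept, 1 was higher and 1 lower at an adjusted p below 0.01 (background 5.52% higher, 6.04% lower). Crlf2, the receptor chain for thymic stromal lymphopoietin, differed by -1.29 and Csf2 (GM-CSF) by 0.97 (log2). Il7r itself had no kept probe.

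Promoter windows (250 bases before to 50 after a RefSeq start, GRCm38.p6) were searched on both strands for the 10 genes with an adjusted p below 0.01, which have 14 windows. The palindromic letters ACANNNTGT, the inner part of a GR element, were in 1 window, the first of Il1rl1, and in 6.85% of 32851 windows of the same length. The GR core AGAACA, which can overlap that element, was also in 1 window, that of Il18, and in 19% of all windows. The interferon-type letters AAANNGAAA were in the Il17rc window and in 2 overlapping windows of Il1rn (10.6% of all), and the STAT element TTCNNNGAA was in 1 window of Il1f5 (8.3% of all). The windows of Il1rl1, which has 2 starts, and of Il18 are printed 5′ to 3′ on the plus strand, the second Il1rl1 window, with no GR letters, beside the first. The GR letters are in capitals and begin at position -195 from the first Il1rl1 start and at -74 from the Il18 start. A match describes these letters only.
Il1rl1 first window, chr1:40429320-40429619: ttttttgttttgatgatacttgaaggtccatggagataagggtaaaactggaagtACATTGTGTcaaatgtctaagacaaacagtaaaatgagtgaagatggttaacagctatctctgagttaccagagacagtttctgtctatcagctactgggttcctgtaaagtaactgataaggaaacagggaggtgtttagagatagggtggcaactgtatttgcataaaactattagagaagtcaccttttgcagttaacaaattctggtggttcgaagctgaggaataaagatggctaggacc
Il1rl1 second window, chr1:40439379-40439678: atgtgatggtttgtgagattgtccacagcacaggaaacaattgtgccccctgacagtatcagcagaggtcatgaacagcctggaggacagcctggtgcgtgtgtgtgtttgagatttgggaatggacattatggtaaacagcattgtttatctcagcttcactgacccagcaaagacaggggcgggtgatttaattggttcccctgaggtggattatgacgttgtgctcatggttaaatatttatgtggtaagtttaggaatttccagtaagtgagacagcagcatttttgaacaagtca
Il18, chr9:50554450-50554749: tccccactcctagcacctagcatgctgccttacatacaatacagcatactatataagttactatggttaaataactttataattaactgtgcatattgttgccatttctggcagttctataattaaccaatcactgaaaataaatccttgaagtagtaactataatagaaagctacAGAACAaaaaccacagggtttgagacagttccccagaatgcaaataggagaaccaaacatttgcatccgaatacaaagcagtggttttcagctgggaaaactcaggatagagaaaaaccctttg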

How the data were processed

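Per the labels, RNA of each line was labelled with Cy3, and Agilent Feature Extraction 10.5.1.1 made the deposited intensity files, with a processed signal and a flag for signal well above background for each spot. A table of log2 values (41265 rows), which the authors normalized in GeneSpring, was deposited beside them. Its rows are centered on their median over the 4 columns, as the values show, and the column medians ran from -0.06 to 0.08. The direction was set by the columns' sample names, and differences within replicate 2 correlated at 0.796 across probes with those of the scanner files. Which scaling came before the centering stays unknown. Here log2(processed signal) minus the array's 75th percentile was used (spots of a probe averaged, control spots and outlier flags left out, no pseudocount), and limma 3.58.1 in R 4.3.3 fitted both forms over 24436 probes, with Benjamini-Hochberg adjustment over all of them. On simulated data with 200 probes changed by 2 (log2), the fit recovered 118 in the table and none in the scanner files, with no false call in either. The 2 arrays per line limit the precision, and no spot was saturated. Genes were named by the scanner files, and all 83 matched RefSeq, 2 of them under a newer symbol. Probe coordinates are those of the files (mm9), and promoter sequences are RefSeq's (GRCm38.p6); coordinates of the 2 builds are not comparable. Genes given with values on every array had an adjusted p below 0.01 and a difference over 1.5-fold. Il4ra and Il27ra are added to them because they were singled out after their values were seen. Il15 was also singled out in that way, and only its differences are given. For other kept genes the difference at the brightest probe is given, and further probes where they differ. The members, gene lists and the rule on arrays in doubt were chosen with earlier results of these data known. Alternatives covered background correction, scaling, the filter, a moderated trend, a block for the replicate number, fits without 1 array, each replicate number alone (chosen after seeing the data) and the methods' t-test. One gene of the Janus kinase and STAT list is not reported here.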

Additional observations from a re-analysis of the deposited data

How the results depend on the processing

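Value table. The 6 called member probes became 5 with only probes above background on all 4 arrays and 7 with a trended robust prior. Background shares are not given for these settings. They became 7 at an adjusted p below 0.05 and 12 with no limit on the fold. By the methods' t-test they were 5 without adjustment and 0 after it. Counted as genes by the brightest kept probe they were 4, which leaves out Il17rd, whose brightest kept probe was not called. When all probes of the array were kept, 0 were called. With the replicate number as a block the count was 0; the numbers pair the samples by no label, and same-numbered deviations correlated at 0.056 in the table and 0.574 in the scanner files. None of the 12 probes kept an adjusted p below 0.01 with the block, which changed no other call. The median of the member probes moved from -0.06 to -0.23 with all probes kept. The cause was not tested. Scanner files. No setting called a member probe, and the 2 probes over 2-fold with no test became 0 with the arrays labelled replicate 1 alone and 8 with those labelled replicate 2 alone. In the table these were 9, 7 and 11. With 1 array left out the difference changed sign for these probes, none of which passed in the scanner files, with these lowest and highest log2 differences: Il1rl1 A_51_P339793 -0.45 to 3.33, Il1rn -1.62 to 0.65, Il20rb -2.30 to 0.97 and (A_52_P447064) -1.15 to 0.30, Il27ra -2.01 to 0.90, Il17re -0.98 to 0.048, Il4ra -0.69 to 0.16, Il17rd A_51_P184447 -0.46 to 0.15 and A_52_P12243 -0.21 to 0.044. In the table the sign changed with a column left out for these probes, none of which had passed: Il10ra -0.20 to 0.36, Il11ra1 -0.064 to 0.013 and -0.031 to 0.088, Il13 -0.010 to 0.57, Il15 A_52_P383066 -0.14 to 0.15, Il15ra -0.025 to 0.13, Il16 -0.010 to 0.12, Il17f -0.14 to 0.18, Il17rd A_51_P184447 -0.47 to 0.14, Il21r -0.15 to 0.14, Il22ra1 -0.093 to 0.018, Il23r -0.31 to 0.11, Il27 -0.16 to 0.028, Il28b -0.24 to 0.25, Il2ra -0.19 to 0.84, Il31ra -0.11 to 0.089 and Il3ra -0.21 to 0.14. In a fit with 1 array in a line that array is assumed to vary like the other line. The slide could not be used as a block, since all arrays share 1 slide. Low signal limits the probes of the 26 genes not above background on any array, whose levels are unknown.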
